A study of Mus musculus with 6 samples.

Results

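Glutamate is the main excitatory transmitter of the brain, and 50 genes of its receptors, transporters and postsynaptic scaffolds are described here, of 23057 genes in the deposited expression table. They were listed by gene symbol and function, with earlier results of these data known: 4 subunits of AMPA receptors, 5 of kainate receptors, 7 of NMDA receptors, 1 delta receptor subunit, 7 metabotropic receptors, 3 vesicular and 5 plasma membrane transporters, 6 auxiliary subunits of the Cacng family and 12 scaffold or adaptor genes. All 50 symbols were found in the table once. RNA was taken from brains of C57BL/6 mice, 3 mock-irradiated and 3 given a cranial X-ray dose of 10 Gy through a collimated field, both groups 30 days after the procedure, with PBS perfusion before the brain was taken. The labels name no transgene, drug or tumor in either group, and give neither the sex nor the age of the mice. The values are FPKM, read counts scaled by transcript length and library size, from RNA depleted of ribosomal RNA, and mock 1 to irradiated 3 name the libraries by group and replicate. The title of the series concerns radiation-induced senescence around brain tumors, and the comparison here asks how the RNA of the excitatory synapse differed between irradiated and mock-irradiated brain.

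Glutamate is packed into vesicles by vesicular transporters (Slc17a6, Slc17a7, Slc17a8), acts on ion channels of the AMPA, kainate and NMDA classes and on metabotropic receptors coupled to G proteins, and is cleared by transporters of the Slc1a family, largely on astrocytes. AMPA receptors travel and gate together with transmembrane auxiliary subunits of the Cacng family, and scaffolds of the Dlg, Homer and Shank families hold the receptors in the postsynaptic density. Many members mark a region: Slc17a7 belongs mainly to cortical, hippocampal and cerebellar granule neurons, Slc17a6 to thalamus and brainstem, Grin2c and Grm4 to cerebellar granule cells, and Slc1a6 and Homer3 to Purkinje cells.

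Markers of brain regions differed strongly between libraries that are all labelled as brain and described as whole brains, and this bears on many values below. The summed FPKM of 10 cerebellum markers was 956.1 to 1407 in mock and 57.1 to 91.96 in irradiated libraries, and all 10 markers fell. For 7 brainstem and spinal cord markers the sums were 77.2 to 98.3 and 0.857 to 3.51 FPKM, again with all 7 lower, and 2 of the 7 were listed at 0 in each irradiated library. Gabra6, a receptor subunit that defines cerebellar granule cells, read 73.8, 127 and 52.9 FPKM across the mock libraries and 1.39, 0 and 0.0197 FPKM across the irradiated ones. The 8 telencephalon markers summed to 289, 53.3 and 305 FPKM in mock 1, 2 and 3 and to 837, 692 and 1479 FPKM in irradiated 1, 2 and 3, so mock 2 stood apart. The 8 hippocampus markers summed to 62.4, 44.5 and 53.7 FPKM (mock) and 121, 131 and 196 FPKM (irradiated), with 4 called higher, the olfactory bulb list of 5 to 158, 21.5 and 177 and 226, 51.98 and 38.4 FPKM, with none called, and the oligodendrocyte list of 8 to 5315, 5313 and 6384 and 4361, 3289 and 2475 FPKM, with 2 called lower and 8 lower at an unadjusted p under 0.05. Genes of all neurons (18 of them) summed to 6845 to 8237 FPKM per mock library and to 8229.6 to 9558 FPKM per irradiated one, and none of them passed the test (5 were higher and none lower at an unadjusted limma p under 0.05). The cerebellum, brainstem, telencephalon and hippocampus sums did not overlap between the groups. The regions sampled and the irradiation therefore cannot be told apart for genes of any of those regions. In bulk tissue, fewer cells of a type and less RNA per cell cannot be told apart either.

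Of the 50 members, 48 passed the filter of a mean of at least 0.5 FPKM and were tested with limma on log2(FPKM + 0.5). Slc17a7, Cacng3, Cacng8, Grm5 and Dlg3 rose, while Gria4, Grin2c, Grin3b, Grm4, Slc1a6, Cacng2 and Homer3 fell. These are 5 higher and 7 lower, against a background in which 3.48% of all 14585 tested genes were called higher and 4.24% lower at an adjusted p under 0.05 (7.72% in all). Of the 48, 21 had their 3 irradiated libraries outside the mock range, 11 above and 10 below, where 31.5% of all tested genes did (13.7% above and 17.7% below). At an unadjusted limma p under 0.05 there were 12 members higher and 11 lower, beside 25.6% of all tested genes in either direction (11.7% higher and 13.9% lower). The median log2 change was 0.24 over the members and -0.02 over all tested genes. The remaining members were Grm6, the receptor of retinal bipolar cells, listed at 0 in 5 libraries and at 0.0142 FPKM in irradiated 2, and Slc1a7, a retinal glutamate transporter, which did not exceed 0.0865 FPKM in a library.

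**Figure D1:**
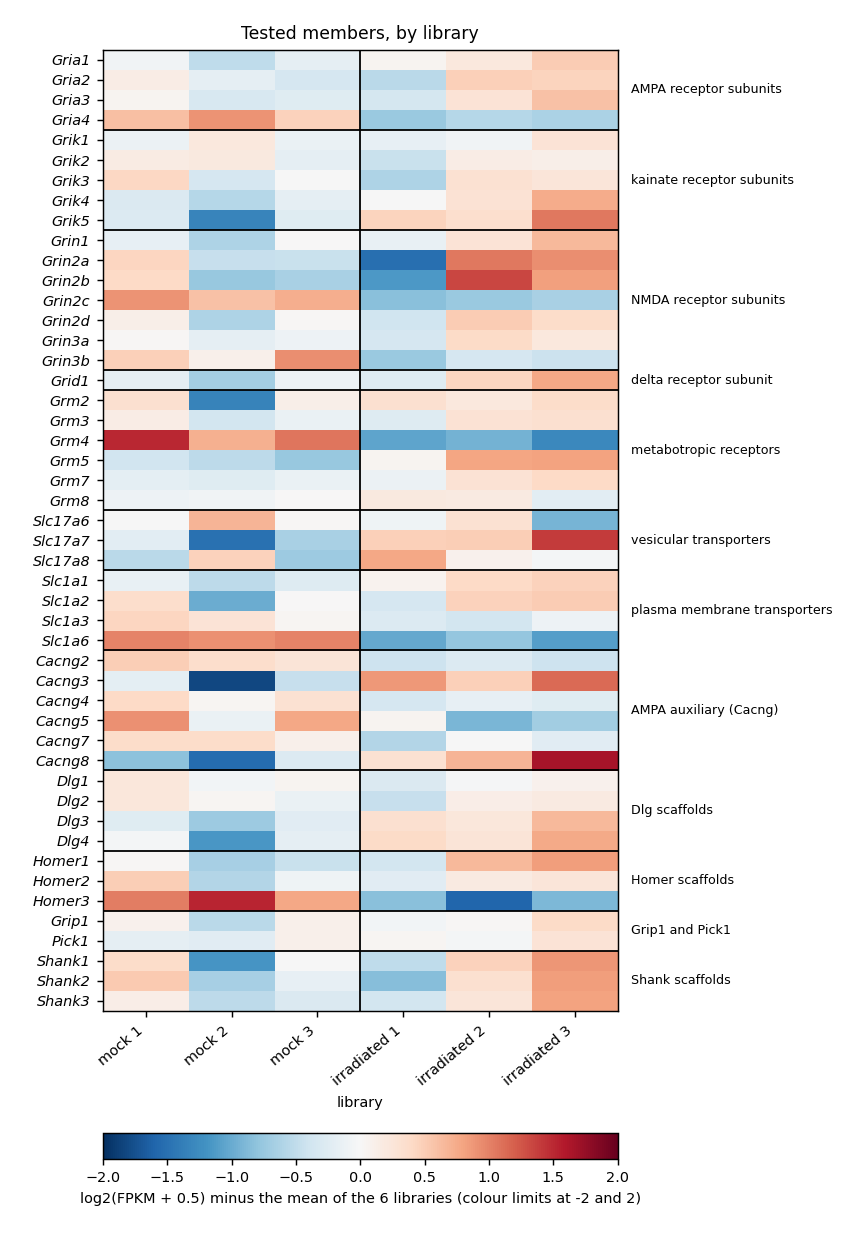
Each row is 1 of the 48 tested members and each column 1 library, with colour showing log2(FPKM + 0.5) minus the mean of the 6 libraries and horizontal lines separating role groups. Gria4, Grin2c, Grm4, Slc1a6 and Homer3 are red in every mock library and blue in every irradiated one, and mock 2 and irradiated 1 hold the lowest value of 22 and 16 members.

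**Figure D2:**
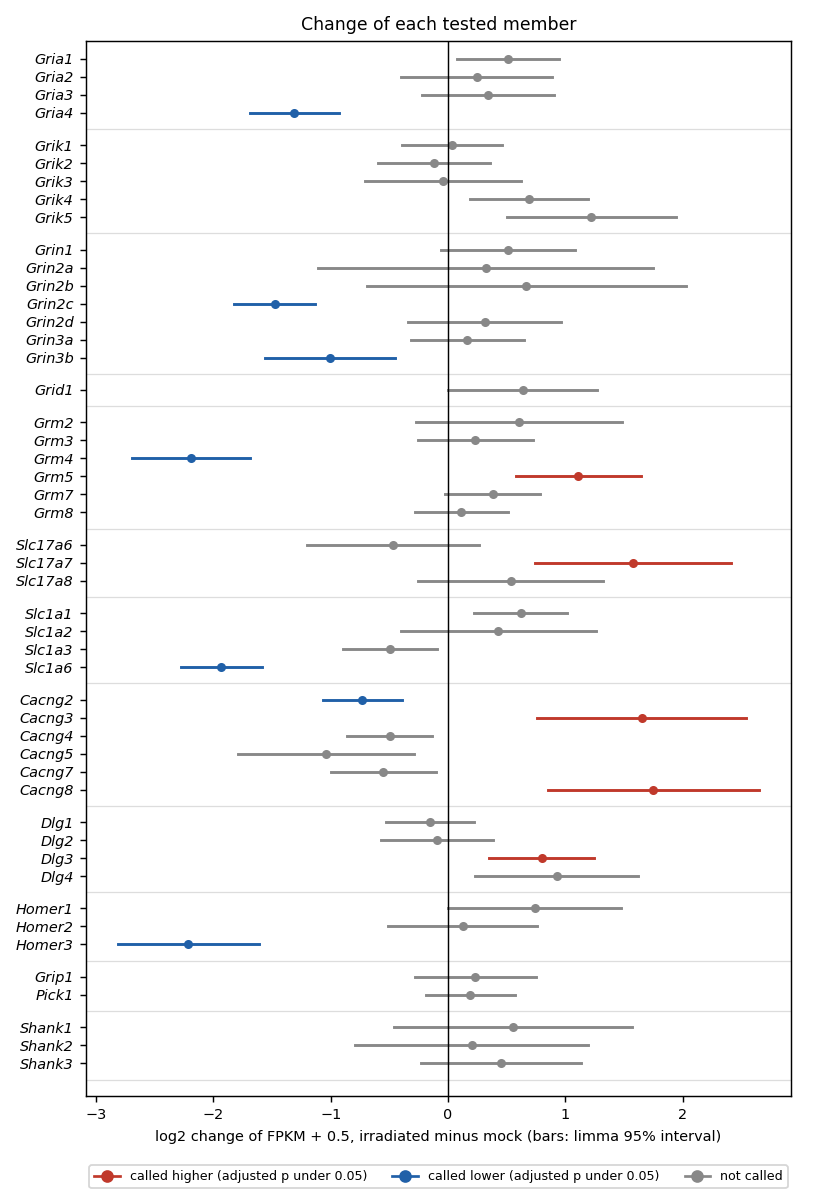
Points give the log2 change of FPKM + 0.5, irradiated minus mock, of each tested member with its limma 95% interval (3 libraries per group), grouped by role and coloured by call. The 7 members called lower and the 5 called higher are spread over 8 of the 12 role groups, with Homer3 (-2.21) and Cacng8 (1.75) at the ends.

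Promoters of 2 members that rose and 2 that fell are shown, to set members of opposite direction side by side with common promoter motifs. RefSeq (GRCm38.p6) gave a window for 10 of the 12 called members, and none for Grm4 and Grm5. The 250 bases before a RefSeq transcript start are printed 5′ to 3′ on the gene's strand, with capitals for matches to any of 4 motifs, searched on both strands. A GC box was taken as GGGCGG, to which Sp1-type factors bind. The TATA box, placed near many starts, was taken as TATAAA. The E-box searched was CAGATG, a site of neuronal bHLH factors. The cAMP response element was taken by its full palindrome, TGACGTCA. None of these motifs holds another. Slc17a7 is at chr7:45163671-45163920 (plus strand), Cacng8 at chr7:3393792-3394041 (plus strand), Grin2c at chr11:115267244-115267493 (minus strand) and Slc1a6 at chr10:78780246-78780495 (plus strand). The window of Grin2c reaches inside the outer bounds that RefSeq lists for the gene, and that of Slc1a6 lies wholly inside them. Of the windows not printed, those of Grin3b, Dlg3 and Cacng2 also lie wholly inside such bounds, and that of Homer3 reaches inside.
Slc17a7: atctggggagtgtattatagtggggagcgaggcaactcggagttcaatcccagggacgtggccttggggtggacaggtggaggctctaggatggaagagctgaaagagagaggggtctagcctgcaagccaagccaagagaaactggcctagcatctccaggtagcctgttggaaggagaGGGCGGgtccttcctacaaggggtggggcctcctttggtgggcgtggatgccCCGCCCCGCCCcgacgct
Cacng8: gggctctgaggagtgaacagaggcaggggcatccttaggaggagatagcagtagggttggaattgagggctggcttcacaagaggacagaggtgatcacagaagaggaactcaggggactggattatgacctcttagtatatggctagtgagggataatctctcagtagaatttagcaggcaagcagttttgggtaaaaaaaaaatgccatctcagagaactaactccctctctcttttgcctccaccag
Grin2c: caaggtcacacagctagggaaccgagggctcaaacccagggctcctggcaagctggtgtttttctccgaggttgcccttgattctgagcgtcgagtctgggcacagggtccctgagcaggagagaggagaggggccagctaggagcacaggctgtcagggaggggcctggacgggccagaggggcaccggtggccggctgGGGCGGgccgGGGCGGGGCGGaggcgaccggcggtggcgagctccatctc
Slc1a6: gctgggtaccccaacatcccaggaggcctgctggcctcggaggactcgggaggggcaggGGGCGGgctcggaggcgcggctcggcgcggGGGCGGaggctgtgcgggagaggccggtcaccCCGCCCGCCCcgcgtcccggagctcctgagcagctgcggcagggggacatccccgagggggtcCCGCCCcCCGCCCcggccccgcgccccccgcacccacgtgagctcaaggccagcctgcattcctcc
A GC box was found 3 times for Slc17a7, 3 times for Grin2c and 6 times for Slc1a6, and not in the window of Cacng8. Of the called members with a window, 2 of 4 that rose and 3 of 6 that fell held a GC box, where 32.7% of the 32851 windows in the RefSeq table did. The 10 members had 11 windows, and a member counted if any of its windows held the motif. The share over all is per window, so the units differ. A TATA box and a CAGATG E-box were found in 1 member, Grin3b (12.4% and 14.4% of all windows), and a cAMP response element in none (1.55% of all windows). GC content was 61.2% for Slc17a7, 48.0% for Cacng8, 68.8% for Grin2c and 78.8% for Slc1a6, beside a median of 52.4% over all windows.

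Among the vesicular transporters, Slc17a7 (VGLUT1) rose, and the others did not pass. Slc17a7 (chromosome 7, 45163921 to 45176139) read 211, 86.8 and 156 FPKM across mock 1, 2 and 3 and 342, 347 and 647 FPKM across irradiated 1, 2 and 3, the order of libraries used throughout. The groups did not overlap, mock 2 was lowest and irradiated 3 highest, as on the telencephalon list. The log2 change was 1.58 (SE 0.37, limma adjusted p = 0.038), and the call was lost without mock 2, mock 3, irradiated 2 or irradiated 3 (adjusted p = 0.105, 0.075, 0.053 and 0.125) and with quantile normalization (1.31, adjusted p = 0.059). Slc17a6 (VGLUT2) read 31.6, 51.2 and 32.4 FPKM across the mock libraries and 29.9, 39.3 and 16.5 FPKM across the irradiated ones, which overlap (log2 change -0.47, 95% interval -1.20 to 0.26, adjusted p = 0.391). Of 6 thalamus markers 2 were called higher and 1 lower, whereas all 7 brainstem and spinal cord markers fell. The part of either list in the Slc17a6 values was not tested. Within a library the log2 ratio of Slc17a7 to Slc17a6 was 2.72, 0.76 and 2.25 across mock and 3.49, 3.13 and 5.25 across irradiated libraries. The ratio was thus higher in every irradiated library than in any mock one, by 2.05 on average. Slc17a8 (VGLUT3), found in scattered serotonergic, cholinergic and interneuron populations, was low throughout, with 0.422, 1.36 and 0.318 (mock) and 1.79, 0.923 and 0.807 (irradiated) FPKM. Of the summed FPKM of the class, Slc17a7 took 77.3% ± 13.1 in mock and 92.8% ± 4.06 in irradiated libraries (SD, n = 3). With the library median of the telencephalon markers as a covariate, the log2 change of Slc17a7 was 0.54 (adjusted p = 0.605). That median did not overlap between the groups, so the covariate and the irradiation cannot be told apart. The part of those markers in the rise was not tested.

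Of the 4 AMPA receptor subunits, Gria4 (GluA4), the one typical of cerebellum, brainstem and fast interneurons, fell, and the others did not pass. Gria4 (chromosome 9, 4417893 to 4796234) had an FPKM of 59.7, 73.5 and 53.8 under mock treatment against 23.1, 26.02 and 24.9 after irradiation. The lowest mock library was above every irradiated one by a wide margin, and the log2 change was -1.31 (SE 0.17, limma adjusted p = 0.0032). It was called without any single library, and not with the telencephalon covariate (-1.06, adjusted p = 0.114). Gria1 (GluA1), the main subunit of hippocampal and cortical synapses with Gria2, stood at 69.8, 51.2 and 64.3 FPKM in the mock group, and the irradiated group gave 75.9, 85.2 and 104 FPKM. Its groups did not overlap, but the log2 change of 0.51 did not pass (adjusted p = 0.136, unadjusted p = 0.026). Gria2 (GluA2), which sets calcium permeability, gave 47.9, 38.2 and 34.4 (mock) and 29.6, 60.4 and 59.1 (irradiated) FPKM (log2 change 0.25, interval -0.40 to 0.89), and Gria3 gave 26.2, 20.1 and 21.3 (mock) and 19.6, 30.7 and 38.3 (irradiated) FPKM (log2 change 0.34, interval -0.22 to 0.91). Both overlapped between the groups, with irradiated 1 the lowest library of each. As a share of the summed FPKM of the 4 subunits, Gria4 took 33.5% ± 5.83 in mock and 13.1% ± 2.31 in irradiated libraries (SD, n = 3), and Gria1 took 33.1% ± 4.62 and 46.5% ± 4.57. The sum itself overlapped, at 204, 183 and 174 (mock) against 148, 202 and 227 (irradiated) FPKM.

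Of the 5 kainate receptor subunits none passed the test; 2 were higher and none lower at an unadjusted p under 0.05. Those were the subunits that bind glutamate with high affinity and need a partner to form a channel. Grik5 (GluK5) measured 48.1, 23.2 and 49.4 FPKM in mock brains compared with 80.1, 73.5 and 122 FPKM in irradiated brains, without overlap, with a log2 change of 1.22 (SE 0.32) just outside the threshold (adjusted p = 0.053). Grik4 (GluK4), a subunit of hippocampal CA3 neurons, gave 7.89, 6.37 and 8.52 (mock) and 9.71, 12.01 and 16.7 (irradiated) FPKM, again without overlap (log2 change 0.69, adjusted p = 0.091). Grik5 was the most abundant of the class per length in every library. The channel-forming subunits Grik1, Grik2 and Grik3 had log2 changes of 0.03, -0.12 and -0.04, with intervals from -0.39 to 0.46, -0.60 to 0.35 and -0.71 to 0.62. Their libraries lay between 5.42 and 12.4 FPKM and overlapped between groups.

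Among NMDA receptor subunits, Grin2c and Grin3b fell and the obligatory subunit Grin1 did not pass. Grin2c (GluN2C; chromosome 11, 115249169 to 115267297), the subunit that replaces GluN2B in maturing cerebellar granule cells, gave 50.8, 41.2 and 45.5 (mock) and 15.03, 16.02 and 17.2 (irradiated) FPKM. The gap between the groups was larger than the spread within either, and the log2 change was -1.48 (SE 0.15, limma adjusted p = 0.0012). The call stood under all 19 alternatives tried. None of these took the cerebellum markers into account, which fell as well, and their part in the fall of Grin2c was not tested. Grin3b (GluN3B; chromosome 10, 79970397 to 79977190), a glycine-binding subunit of motor neurons, read 1.87, 1.35 and 2.77 FPKM across the mock libraries and 0.523, 0.856 and 0.767 FPKM across the irradiated ones. It was low in all 6 libraries, its log2 change was -1.01 (SE 0.24, adjusted p = 0.043), and its exons overlap those of Tmem259 on the other strand. The Grin3b call was lost without mock 1, mock 3, irradiated 1, irradiated 2 or irradiated 3 (adjusted p = 0.118, 0.104, 0.069, 0.061 and 0.119). Grin1 had an FPKM of 103, 74.8 and 116 under mock treatment against 103, 139 and 180.2 after irradiation (log2 change 0.51, interval -0.06 to 1.08), and only irradiated 1 lay inside the mock range. Its share of the summed FPKM of the 7 subunits was 59.4% ± 3.61 in mock and 77.2% ± 3.08 in irradiated libraries (SD, n = 3), while that of Grin2c was 28.3% ± 3.20 and 9.17% ± 1.97.

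The forebrain subunits Grin2a and Grin2b, which set channel kinetics and bind calcium-dependent signalling proteins, turned on 1 library. Grin2a stood at 3.75, 1.80 and 1.84 FPKM in the mock group, and the irradiated group gave 0.613, 6.10 and 5.57 FPKM, while Grin2b gave 2.09, 0.660 and 0.745 (mock) and 0.383, 4.41 and 2.94 (irradiated) FPKM. Irradiated 1 was the lowest of all libraries for both, and irradiated 2 and 3 were above every mock library. The log2 changes were 0.32 and 0.67 (adjusted p = 0.773 and 0.510), and without irradiated 1 they were 1.16 and 1.40 (adjusted p = 0.041 and 0.047). Their longest annotated transcripts, 14634 and 24060 nucleotides, are the longest among the members. The log2 ratio of Grin2a to Grin2b overlapped between the groups, with 0.72, 0.99 and 0.91 for mock against 0.33, 0.43 and 0.82 for irradiated libraries. Grin2d, a subunit of brainstem, diencephalon and interneurons, gave 10.1, 5.82 and 9.42 (mock) and 6.85, 13.2 and 12.1 (irradiated) FPKM, which overlap. The 95% interval of its log2 change was -0.34 to 0.97, and for Grin3a, the other glycine-binding subunit, it was -0.32 to 0.65. Grid1, the delta receptor subunit that binds cerebellins and glycine or D-serine, measured 14.8, 10.2 and 15.6 FPKM in mock brains compared with 13.9, 22.8 and 28.9 FPKM in irradiated brains. Only irradiated 1 overlapped the mock range; the log2 change of 0.64 did not pass (adjusted p = 0.193) and was 0.92 without that library (adjusted p = 0.039).

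Among the auxiliary subunits of AMPA receptors, Cacng8 and Cacng3 rose and Cacng2 fell. Cacng8 (TARP gamma-8; chromosome 7, 3394042 to 3416266), the main auxiliary subunit of the hippocampus, gave 23.2, 13.9 and 33.99 (mock) and 51.03, 66.3 and 129.8 (irradiated) FPKM. Cacng3 (gamma-3; chromosome 7, 122671744 to 122769393), a cortical one, read 22.3, 6.95 and 18.5 FPKM across the mock libraries and 47.3, 36.01 and 57.2 FPKM across the irradiated ones. In both genes the groups did not overlap, mock 2 was lowest and irradiated 3 highest. The summed hippocampus and telencephalon markers likewise did not overlap, were lowest in mock 2 and highest in irradiated 3, and their part in these rises was not tested. The log2 changes were 1.75 (SE 0.39, limma adjusted p = 0.034) and 1.65 (SE 0.39, adjusted p = 0.040). Cacng8 was not called without mock 1, mock 2, irradiated 2 or irradiated 3 (adjusted p = 0.094, 0.103, 0.058 and 0.095), nor Cacng3 without mock 3, irradiated 1, irradiated 2 or irradiated 3 (adjusted p = 0.060, 0.058, 0.053 and 0.141). With the telencephalon covariate their log2 changes were 0.64 and 0.47 (adjusted p = 0.578 and 0.610).

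Cacng2 (stargazin, gamma-2; chromosome 15, 77991919 to 78120220), which brings AMPA receptors to the surface of cerebellar granule cells, went the other way. It had an FPKM of 22.4, 20.4 and 18.9 under mock treatment against 11.8, 13.04 and 11.7 after irradiation, and every irradiated library lay below every mock one. The log2 change was -0.73 (SE 0.15, limma adjusted p = 0.023), not called without mock 1, mock 2, mock 3 or irradiated 3 (adjusted p = 0.104, 0.066, 0.054 and 0.093). Cacng4, Cacng5 and Cacng7 did not pass, although each was lower at an unadjusted p under 0.05. Cacng7 (gamma-7), the most abundant of the family per length, stood at 178, 179 and 149 FPKM in the mock group, and the irradiated group gave 92.2, 138 and 118 FPKM (log2 change -0.55, adjusted p = 0.124). Cacng5 (gamma-5) gave 22.9, 10.8 and 20.7 (mock) and 12.3, 6.10 and 7.12 (irradiated) FPKM, with mock 2 below irradiated 1 (log2 change -1.04, adjusted p = 0.091). Cacng4 (gamma-4) gave 19.7, 15.2 and 18.4 (mock) and 11.6, 13.1 and 12.5 (irradiated) FPKM (log2 change -0.50, adjusted p = 0.094). Cacng7 and Cacng8 lie next to each other on the same strand of chromosome 7 (Cacng7 at 3332027 to 3368221). Their log2 ratio, Cacng8 over Cacng7, came to -2.92, -3.63 and -2.12 in the mock group against -0.85, -1.05 and 0.13 in the irradiated group. Every irradiated library was above every mock one, by 2.30 on average. Cacng8 and Cacng3 together took 8.49 to 20.2% of the summed FPKM of the family in mock and 37.6 to 55.5% in irradiated libraries.

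**Figure D3:**
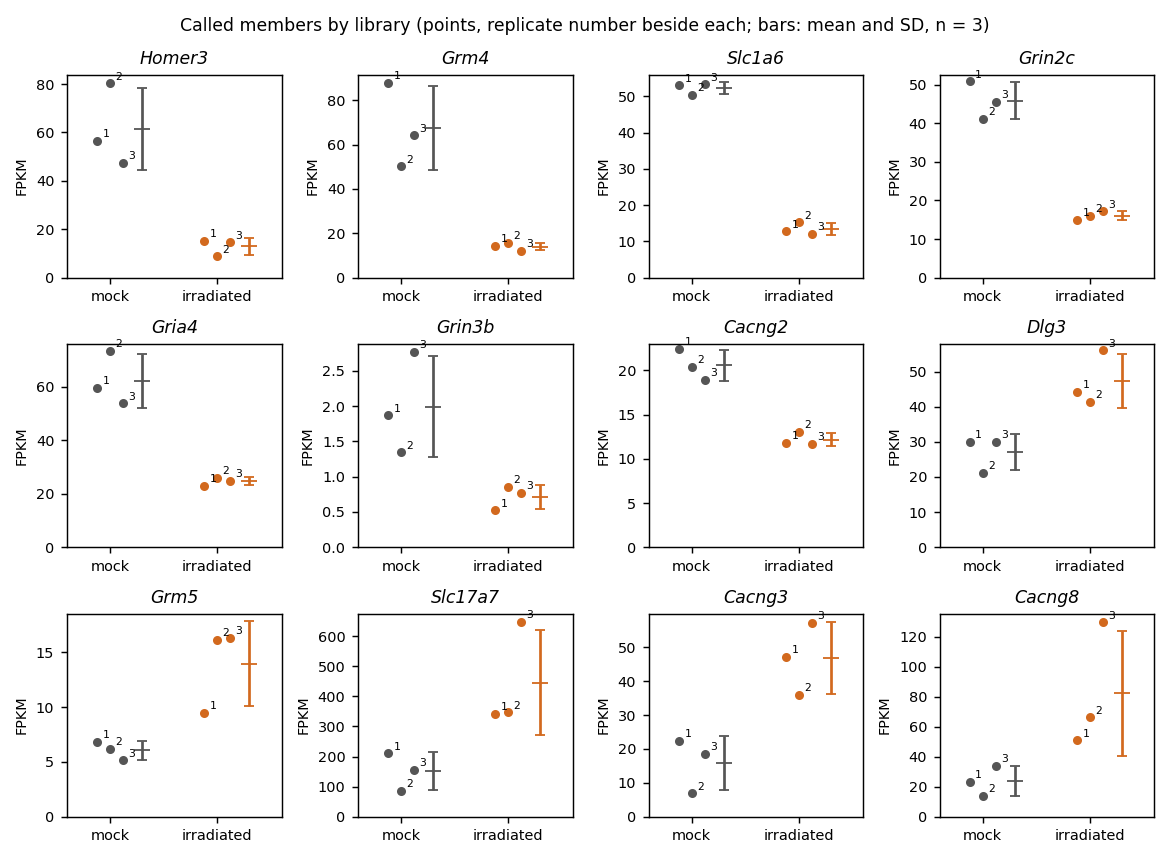
FPKM of the 12 called members, with 1 point per library labelled by replicate number, a bar for the mean and SD of each group (n = 3) and a linear axis from 0 in each panel. In no panel do the groups overlap, and the irradiated points lie close together in Grin2c (15.03 to 17.2 FPKM) and far apart in Slc17a7 (341.7 to 646.7 FPKM).

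Among the metabotropic receptors Grm4 fell and Grm5 rose. Grm4 (mGluR4; chromosome 17, 27422387 to 27513826), a presynaptic receptor of cerebellar parallel fibres, measured 87.7, 50.2 and 64.2 FPKM in mock brains compared with 14.3, 15.6 and 12.2 FPKM in irradiated brains. Mock libraries were thus 4.80-fold above irradiated ones on average, without overlap (log2 change -2.19, SE 0.22, limma adjusted p = 0.0011), and the call stood under all 19 alternatives. No alternative took the cerebellum markers into account, and their part in the fall of Grm4 was not tested. Grm5 (mGluR5; chromosome 7, 87583981 to 88135063), the postsynaptic receptor of forebrain neurons that is coupled to Homer and Shank proteins, gave 6.86, 6.18 and 5.16 (mock) and 9.45, 16.1 and 16.3 (irradiated) FPKM. The mock mean was 6.06 FPKM, and irradiated 1, the lowest of its group, still lay above each mock library. Its log2 change was 1.11 (SE 0.23, adjusted p = 0.027), not called without mock 1, mock 2, mock 3, irradiated 2 or irradiated 3 (adjusted p = 0.067, 0.077, 0.081, 0.066 and 0.107). Of the rest, Grm2, a presynaptic autoreceptor, gave 19.05, 5.70 and 16.6 (mock) and 19.1, 17.8 and 19.8 (irradiated) FPKM (log2 change 0.60, interval -0.27 to 1.48), and mock 2 was the 1 library away from the others. Grm3, found on glia and neurons, Grm7, a receptor of the active zone, and Grm8 had log2 changes of 0.23, 0.38 and 0.11 (intervals -0.26 to 0.72, -0.02 to 0.78 and -0.29 to 0.51). The share of Grm4 in the summed FPKM of the metabotropic receptors was 61.3% ± 2.31 in mock and 19.1% ± 3.17 in irradiated libraries (SD, n = 3), and that of Grm2 was 12.02% ± 4.47 and 25.7% ± 3.39. The log2 ratio of Grm2 to Grm4 read -2.17, -3.03 and -1.92 under mock treatment and 0.41, 0.18 and 0.68 after irradiation, so Grm4 exceeded Grm2 in every mock library and was below it in every irradiated one.

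Among the transporters that clear glutamate, the Purkinje cell transporter Slc1a6 (EAAT4) fell, and the astrocyte transporters did not pass. Slc1a6 (chromosome 10, 78780086 to 78814825) read 53.1, 50.4 and 53.3 FPKM across the mock libraries and 12.8, 15.3 and 12.1 FPKM across the irradiated ones, with little spread in either group. The log2 change was -1.93 (SE 0.15, limma adjusted p = 0.0004), and the call stood under all 19 alternatives. As for Grm4, no alternative took the cerebellum markers into account, and their part in this fall was not tested. Slc1a1 (EAAT3), the transporter of most neurons, had an FPKM of 23.7, 18.3 and 21.99 under mock treatment against 27.8, 34.97 and 36.5 after irradiation, without overlap, and did not pass (log2 change 0.62, adjusted p = 0.067). The log2 ratio of Slc1a6 to Slc1a1 was 1.15, 1.43 and 1.26 across mock and -1.09, -1.17 and -1.55 across irradiated libraries, positive in the first group and negative in the second. Slc1a3 (GLAST), enriched in cerebellar Bergmann glia and other astrocytes, stood at 163, 148 and 125 FPKM in the mock group, and the irradiated group gave 100.1, 93.97 and 114 FPKM. Every irradiated library lay below the mock range, yet the log2 change of -0.49 did not pass (adjusted p = 0.121). Slc1a2 (GLT-1), the main forebrain astrocyte transporter, gave 113, 44.1 and 88.96 (mock) and 70.3, 122 and 127 (irradiated) FPKM, with mock 2 lowest (log2 change 0.43, interval -0.40 to 1.26). Beside these, 9 astrocyte markers had a median log2 change of -0.16, with 1 of 9 called lower and none higher, and summed to 1632, 1634 and 1817 (mock) and 1422, 1244 and 1120.0 (irradiated) FPKM; their part in the transporter values was not tested.

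**Figure D4:**
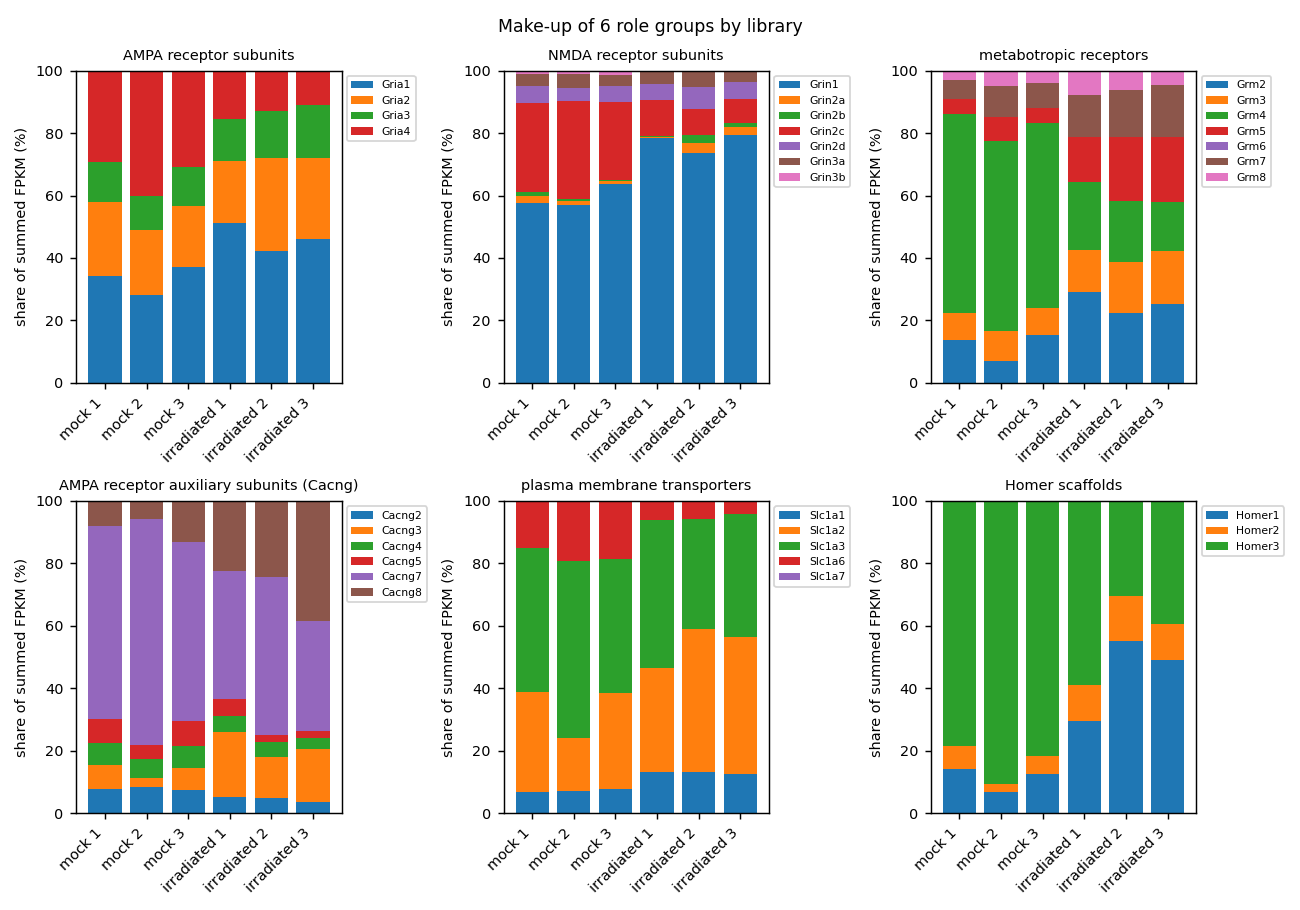
Stacked bars show the percent of the summed FPKM of a role group that each member took, 1 bar per library, for 6 groups. Gria4, Grin2c, Grm4, Slc1a6 and Homer3 take a larger part of the bar in each mock library than in any irradiated one, and Cacng8 and Cacng3 a smaller part.

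The scaffolds showed 1 fall and 1 rise. Homer3 (chromosome 8, 70282880 to 70294361), the Homer protein of Purkinje cells, measured 56.6, 80.3 and 47.4 FPKM in mock brains compared with 15.2, 8.83 and 14.6 FPKM in irradiated brains. Its highest mock value was in mock 2, and its log2 change was -2.21 (SE 0.26, limma adjusted p = 0.0023), called without any single library and not with the telencephalon covariate (-1.77, adjusted p = 0.117). The exons of Homer3 overlap those of Ddx49 on the other strand. Homer1, the forebrain form that also has a short isoform induced by activity, gave 10.2, 6.12 and 7.21 (mock) and 7.64, 16.1 and 18.2 (irradiated) FPKM, with irradiated 1 inside the mock range (log2 change 0.74, adjusted p = 0.194). Without irradiated 1 its log2 change was 1.11 (adjusted p = 0.022). The log2 ratio of Homer1 to Homer3 came to -2.42, -3.61 and -2.64 in the mock group against -0.95, 0.83 and 0.31 in the irradiated group. Homer2 had a log2 change of 0.12 (interval -0.51 to 0.76).

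Dlg3 (SAP102; chromosome X, 100767411 to 100818410), a scaffold that carries NMDA receptors, gave 29.9, 21.2 and 30.1 (mock) and 44.2, 41.5 and 56.1 (irradiated) FPKM. The groups did not overlap and the log2 change was 0.80 (SE 0.20, limma adjusted p = 0.046), a call that was lost when any 1 of the 6 libraries was left out (adjusted p = 0.097, 0.128 and 0.077 without mock 1, 2 and 3, and 0.052, 0.061 and 0.165 without irradiated 1, 2 and 3). Dlg4 (PSD-95), the most abundant of the Dlg scaffolds per length, read 163, 74.6 and 149 FPKM across the mock libraries and 220.2, 201 and 284 FPKM across the irradiated ones. It separated the groups with a larger log2 change than Dlg3, 0.93, but with a wider spread (SE 0.30, unadjusted p = 0.015) and did not pass, in any of the 19 alternatives either. Mock 2 was the lowest library, and without it the log2 change was 0.57 (adjusted p = 0.226). Dlg1 (SAP97) and Dlg2 (PSD-93) had log2 changes of -0.15 and -0.09 (intervals -0.53 to 0.22 and -0.57 to 0.38). None of the 3 Shank genes, which join receptor complexes to the cytoskeleton, passed or was past an unadjusted p under 0.05. Shank1 gave 34.3, 11.4 and 26.3 (mock) and 18.4, 36.8 and 49.2 (irradiated) FPKM, Shank2 gave 21.7, 9.31 and 13.3 and 8.07, 18.8 and 27.2 FPKM, and Shank3 gave 30.8, 19.5 and 23.1 and 21.8, 33.4 and 49.8 FPKM, in the same order. In each of them the ends of the range were mock 2 or irradiated 1 at the bottom and irradiated 3 at the top, and the intervals of the log2 change were -0.46 to 1.57, -0.80 to 1.20 and -0.23 to 1.13. Pick1 and Grip1, adaptors for the tail of GluA2, did not pass. Pick1 gave 33.6, 32.5 and 40.95 (mock) and 39.2, 36.9 and 46.1 (irradiated) FPKM (log2 change 0.19, interval -0.19 to 0.57), and Grip1 had a log2 change of 0.23 (interval -0.28 to 0.75).

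Other genes of the glutamate synapse that are not members, 51 in all, had 9 genes that rose and 1 that fell (17.6% and 1.96%, beside the 3.48% and 4.24% of all tested genes), with a median log2 change of 0.52. None of the 10 was called with the telencephalon covariate, and leaving out mock 1, mock 2, mock 3, irradiated 1, irradiated 2 or irradiated 3 left 5, 5, 6, 15, 6 and 4 of the 51 called higher. In the same fits 187, 205, 309, 673, 356 and 147 of all tested genes were called higher, beside 508 in the reported fit. The summed telencephalon and hippocampus markers were higher in the same libraries, and their part in these values was not tested. Of the 8 hippocampus markers, 6 had a positive and 2 a negative log2 change. Of 15 receptor partners, 5 rose and 1 fell. Cnih2 (cornichon 2), which with Cacng8 slows AMPA receptors of the hippocampus, had an FPKM of 51.1, 36.9 and 46.2 under mock treatment against 199, 148 and 227 after irradiation (log2 change 2.08, SE 0.21, limma adjusted p = 0.0012). Its relative Cnih3 and the secreted protein Olfm1 rose by 1.66 and 1.34 on the log2 scale (adjusted p = 0.029 and 0.041). Syndig1, a membrane protein that binds AMPA receptors, fell and stood at 31.5, 38.9 and 32.9 FPKM in the mock group, and the irradiated group gave 15.6, 16.9 and 17.5 FPKM (log2 change -1.02, adjusted p = 0.0066). Of 20 postsynaptic density genes 2 rose, among them Nsg2, an endosomal protein of receptor traffic (1.25, adjusted p = 0.0045). Among 9 adhesion genes 2 rose, Lrrtm4 (1.12) and Lrrtm1 (1.74), leucine-rich proteins that organise excitatory synapses. Lrrc4b, the adhesion gene with the highest mean, differed by 0.44 on the log2 scale (interval -0.33 to 1.22). None of 7 genes of glutamate and glutamine metabolism passed, and Glul, glutamine synthetase of astrocytes, differed by -0.08 on the log2 scale (interval -0.55 to 0.39). A few more genes were picked after their values were seen. Cpt1c, Neto1 and Begain, the remaining called genes, rose by 0.94, 1.08 and 0.88. The glutamine transporters Slc38a1 and Slc38a2 had log2 changes of -0.79 and -0.67 (unadjusted p = 0.009 and 0.013), the 2 metabolism genes past an unadjusted p under 0.05. Camk2a, the kinase of synaptic plasticity, had the largest log2 change of the 51, 2.24, and did not pass (SE 0.62, adjusted p = 0.063). Its FPKM read 164, 24.2 and 111 across mock and 283, 332 and 506 across irradiated libraries, with mock 2 far below the others.

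Over all members, 2 libraries set most of the low values. Mock 2 held the lowest value of 22 of the 48 tested members and irradiated 1 of 16, whereas irradiated 3 held the highest of 24. Of all tested genes, mock 2 was lowest for 25.3%, irradiated 1 lowest for 24.998% and irradiated 3 highest for 24.7%. Irradiated 1 was below the mean of irradiated 2 and 3 in 40 of 48 members, beside 7480 of 14052 tested genes with a length. The difference was largest for long transcripts. Its median was -0.27 on the log2 scale over 13 members with a longest transcript under 4000 nucleotides, -0.19 over 22 of at least 4000 and under 7000 nucleotides, and -0.89 over 13 of 7000 or more, of which all 13 were lower in irradiated 1. Over all tested genes with a length, the medians of the difference in the same bins were 0.11, -0.22 and -0.55. Of those of 7000 nucleotides or more, 1170 of 1277 were lower in irradiated 1. Spearman's rho between length and that difference was -0.58 across the 48 members and -0.54 across 14052 tested genes with a length; genes of 1 library share its depth and RNA, so these are descriptions. For mock 2 against mock 1 and 3 the same rho was -0.13 across members. Grin2a, Grin2b, Shank2, Shank1 and Homer1 were the members furthest down in irradiated 1, with differences of -2.51, -2.22, -1.43, -1.19 and -1.11. With each library corrected for transcript length, an alternative chosen after seeing the data, 9 members were called higher and 7 lower (5.66% and 5.55% of all tested genes, 11.2% in all), and all 12 called members were among them.

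Calls among the members were also fitted with the telencephalon list taken into account. With its library median as a covariate 3 members were called, Grin2c (-1.69), Grm4 (-2.53) and Slc1a6 (-1.95), all lower (adjusted p = 0.022, 0.024 and 0.022), where 0.542% of all tested genes were called, 0.117% higher and 0.425% lower. No member was called higher with the covariate, and log2 changes of the 5 that had risen ranged from 0.34 (Dlg3) to 0.98 (Grm5). That median itself was 2.70, -0.06 and 2.84 across mock and 3.67, 4.13 and 5.03 across irradiated libraries, without overlap, so the covariate and the irradiation cannot be told apart. Without the filter on low values, with 19679 genes tested, no member was called higher either and 6 were called lower, all but Grin3b, beside 4.4% of all genes (1.81% higher and 2.59% lower). Relative to genes of all neurons, which moves the median of all tested genes from -0.02 to -0.35, the split among members was 3 higher and 11 lower instead of 5 and 7, beside 2.06% and 18.9% of all tested genes (20.9% in all). Slc17a7, Cacng3 and Cacng8 were still called higher on that scale, and Cacng4, Cacng5, Cacng7 and Slc1a3 joined those called lower. Leaving out mock 1, mock 2, mock 3, irradiated 1, irradiated 2 or irradiated 3 gave 2, 1, 1, 9, 0 and 0 members called higher and 5, 6, 5, 7, 6 and 5 called lower, while between 2.79% and 9.37% of all tested genes were called in either direction. Gria4, Grin2c, Grm4, Homer3 and Slc1a6 were called lower in each of those 6 fits, and no rise was called in more than 2 of them. Those fits did not take the cerebellum markers into account.

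**Figure D5:**
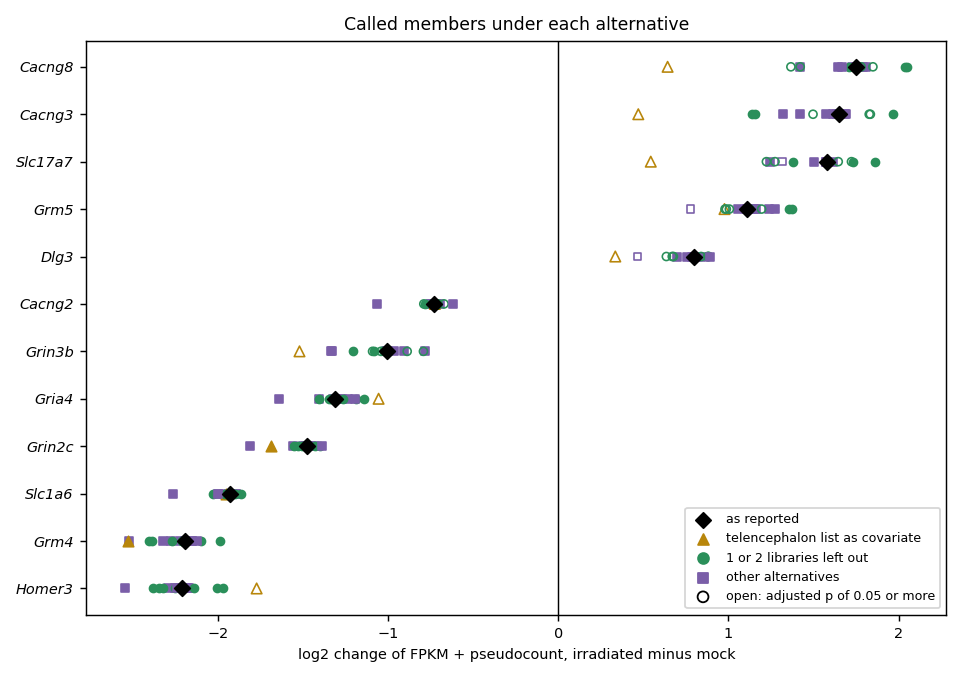
Log2 change of the 12 called members as reported (diamonds) and under 19 alternatives, with filled symbols for an adjusted p under 0.05 and open ones otherwise. The triangles of Slc17a7, Cacng3, Cacng8 and Dlg3, from the fit with the telencephalon covariate, lie closer to 0 than any other symbol of those genes, whereas those of Grin2c, Grm4 and Slc1a6 stay filled.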

How the data were processed

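The authors deposited 1 table of FPKM values with a column for each of the 6 libraries. Per the submitters' processing notes, TopHat, Cufflinks and Cuffdiff were used with build mm10. The versions, the settings, the gene annotation and the use of strand in counting stay unstated (not given in the sources used here), so reads of genes that overlap on opposite strands (Grin3b, Homer3, Slc1a1 and Shank1 among the members) may be mixed. Per the labels' protocols, total RNA from brains was depleted of ribosomal RNA, prepared with a stranded kit and sequenced as single reads of 75 nucleotides. Counts could not be recovered from the FPKM (no step was shared by more than 2.20% of low genes), so the depth behind a value is unknown.

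One leftover header line was removed, leaving 23057 genes. FPKM + 0.5 was put on a log2 scale, the 14585 genes whose mean reached 0.5 FPKM were kept, and the groups were compared with limma 3.58.1 in R 4.3.3 (mean-variance trend, two-sided, Benjamini-Hochberg over all tested genes, called at an adjusted p under 0.05). Every log2 change is that of FPKM + 0.5, so changes of low genes are understated. For a single gene the exact permutation test of 3 against 3 cannot go below p = 0.1, and no such test is given. On simulated data made from 14474 of these genes with 200 changed, 42% of genes given a log2 change of 1 and 80% of genes given one of 2 were called, and 5.43% of calls were of unchanged genes. In the real data 1126 of 14585 genes were called, more than the 200 changed there, so these rates need not hold for the calls above.

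Ratios between members were taken within a library. Gene positions and promoter windows come from RefSeq (GRCm38.p6), and transcript lengths from GENCODE M21. The members, the lists of other synapse genes and the marker lists were chosen with earlier results of these data known. Values in every library were given for called members, for the most abundant member of each role group, for up to 2 more by p, and for members of pairs. Of the other synapse genes, up to 5 in each direction by p and the most abundant of each list were named. Alternatives changed the pseudocount, the filter, the scaling, the library weights, the libraries used, the replicate block, a telencephalon covariate and a length correction.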

Additional observations from a re-analysis of the deposited data

How the results depend on the processing

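The falls of Grin2c, Grm4 and Slc1a6 were called under all 19 alternatives. None of the 19 took the cerebellum markers into account. Those summed to 956.1 to 1407 FPKM in mock and 57.1 to 91.96 FPKM in irradiated libraries. The part of those markers in these falls was not tested. No called member changed direction in any of the 19. Of the 14 ratios between members, 8 did not overlap between the groups, 4 higher and 4 lower after irradiation, and 6 overlapped. These 14 ratios were rerun only with other pseudocounts and with libraries left out. None moved by more than the larger SD of its groups. Leaving out 1 of 3 libraries cannot move a group mean by that much, so those fits do not test the ratios. With 1 library left out in turn, members called higher ranged from 0 to 9 and members called lower from 5 to 7, other synapse genes from 4 to 15 higher and 1 to 2 lower, and all genes from 147 to 673 higher and 254 to 695 lower. Without irradiated 1, 9 of the 12 called members were still called and 7 others joined them.

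No filter on low values left 0 members and 4 other synapse genes called higher. Centring on genes of all neurons gave 3 members higher and 11 lower, 7 other synapse genes lower, and 300 higher and 2750 lower of all genes. Library weights gave 8 members and 17 other synapse genes higher, and 863 higher and 976 lower of all genes. The telencephalon covariate left 0 members higher and 3 lower, 0 other synapse genes in either direction, and 17 higher and 62 lower of all genes. Leaving out mock 2 and irradiated 1 together gave 16 other synapse genes higher and 2 lower, beside 620 higher and 672 lower of all genes. Quantile normalization gave 2 other synapse genes lower, beside 626 of all genes. The length correction, chosen after seeing the data, gave 9 members, 18 other synapse genes and 825 of all genes higher, with 2 other synapse genes lower. The cause was not tested in any of these.

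Some members that did not pass the reported test changed direction under an alternative. On the log2 scale these were Gria2 -0.085, Grik1 -0.30, Grin2a -0.0098, Grin2d -0.019, Grin3a -0.17, Grm3 -0.10, Grm8 -0.22, Homer2 -0.21, Grip1 -0.097, Pick1 -0.14 and Shank2 -0.13 with centring on genes of all neurons, and Gria2 -0.033, Gria3 -0.057, Grin1 -0.10, Grin2a -0.56, Grin2b -0.20, Grin2d -0.37, Grin3a -0.059, Grid1 -0.029, Grm2 -0.55, Grm3 -0.18, Slc17a6 0.29, Slc1a2 -0.63, Homer2 -0.56, Grip1 -0.36, Pick1 -0.029, Shank1 -0.78, Shank2 -0.82 and Shank3 -0.17 with the telencephalon covariate. Without mock 2 and irradiated 1 together they were Grik2 0.14, Grik3 0.076 and Dlg2 0.11, with the length correction Grik2 0.055, Grik3 0.13 and Dlg2 0.068, with library weights Grik3 0.015 and Dlg2 0.0033, and with quantile normalization Grik3 0.00082. With 1 library left out, Dlg2 ranged from -0.21 to 0.11, Grik1 from -0.10 to 0.14, Grik2 from -0.24 to 0.070, Grik3 from -0.22 to 0.26, Grin2a from -0.13 to 1.16, Shank2 from -0.17 to 0.68 and Homer2 from -0.14 to 0.40.

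Replicate numbers share no stated animal, litter or day, and same-numbered libraries had correlations of -0.33, 0.19 and 0.20 in their deviations from the group means, and not every library correlated best with its own number. With a replicate block, 4 members were called higher and 6 lower (8 of them among the 12), and 401 higher and 394 lower of all genes. Depth is unknown from FPKM, so low members such as Grin3b, Slc17a8 and Grin2b carry a counting error that cannot be given.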
